A study of Gallus gallus with 51 samples.

Results

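The basal transcription machinery was represented by 54 of the 1509 gene probes on a human transcription factor microarray that was hybridised with RNA from the chicken cochlea. The probes were taken by gene name, as those beginning with TAF and a digit, GTF2, GTF3, TBP, PAF65, TCEA, TCEB, ELL, SUPT or BRF. The rule itself used no measured value, but it was set with earlier results of these data known. The same rule also covered names beginning with POLR or BTAF, which no gene probe used here carried. The TAF-172 probe, which the study lists as BTAF1, fell outside the rule by its name and is given with the related machinery. The rule also matched 4 mismatch controls of TAF3B2, which were set apart from the gene probes. By role the 54 probes fell into 15 for the TATA-binding protein (TBP) and TFIID, 3 for the SAGA and PCAF complexes, 3 for the RNA polymerase I factor SL1, 7 for TFIIA, TFIIB, TFIIE and TFIIF, 4 for TFIIH, 1 for TFII-I, 7 for RNA polymerase III factors, 13 for elongation factors, and 1 with an ambiguous name, BRF2.

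Cochleae of post-hatch White Leghorn chicks were cultured for 24 hr in medium with 1 mM neomycin, an aminoglycoside that is toxic to hair cells, and were collected at once (0 hr) or after 24 hr or 48 hr of recovery in neomycin-free medium. Time-matched control cochleae were cultured in the same way without neomycin. A biological replicate paired 4 pooled neomycin-treated epithelia with 4 pooled control epithelia, whose RNA was amplified over 2 rounds and then by in vitro transcription before labelling. The sensory epithelium, the layer of hair cells with their supporting cells, was separated from the stroma and profiled on 51 two-colour arrays, 17 at 0 hr, 16 at 24 hr and 18 at 48 hr, from 3 biological replicates at each time.

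RNA polymerases do not find promoters unaided. TBP and the TBP-associated factors (TAFs) of TFIID bind the core promoter, TFIIA and TFIIB stabilise that complex, TFIIF brings in RNA polymerase II, and TFIIE and TFIIH open the DNA and release the polymerase. Elongation factors such as ELL, TFIIS, the elongins and the SPT4 and SPT5 pair then keep the polymerase moving, while SL1 and TFIIIB with TFIIIC serve RNA polymerases I and III.

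Each ratio below is log2 of neomycin over control signal, so that a positive value means more signal from neomycin RNA, and each replicate has 1 value per probe. Array by array, the median spot signal lay anywhere from 459.7 to 2879 in neomycin RNA and from 261.5 to 3636 in control RNA. In replicate 1 at 0 hr the median array had 61.1% of neomycin spots and 59.9% of control spots at or below local background, and in replicate 1 at 24 hr 54.3% and 39.1%, against at most 7.15% and 5.47% in the other 7 replicates. Replicate 2 at 24 hr and replicate 1 at 48 hr had the widest ratios, with an SD over the tested machinery probes of 0.81 and 0.73 and over the other gene probes of 0.67 and 0.57. One array of 0 hr replicate 3 (neomycin in Cy5, array 2) ran against its 3 companion arrays, with correlations of -0.64, -0.26 and -0.28 across 1282 probes. The 0 hr means of PAF65A and GTF2F1, and the 0 hr count of members with an unadjusted p under 0.05, are therefore also given without it. On another array of that replicate (array 3) the file headers named Cy5 for both RNAs, and its direction was taken from the dye order in its label. It correlated at 0.33 and 0.46 with the 2 companions other than array 2. An array of 0 hr replicate 1 (neomycin in Cy5, array 3) likewise had correlations between -0.42 and -0.30 with 3 companion arrays of the other dye order. Transcription factor markers of the hair cells (4 probes), supporting cells (8), mesenchyme (4), blood cells (4) and muscle (4) were not detected by the criterion below at any time, and of 4 neuronal markers 1, POU4F1, was detected at 0 hr and at 48 hr. The hair cell marker POU4F3 had a mean ratio of 0.15 at 0 hr, 0.03 at 24 hr and -0.79 at 48 hr (unadjusted p = 0.008836 in limma at 48 hr). Its 48 hr replicates stood at -1.60, -0.76 and -0.01. The other hair cell markers, GFI1, ATOH1 and BARHL1, had 48 hr means of -0.11, 0.003 and -0.18. Across the marker lists 1 hair cell probe at 48 hr, 1 supporting cell probe at 24 hr and 1 at 48 hr, and 1 mesenchyme and 1 muscle probe at 24 hr had an unadjusted p under 0.05, all lower with neomycin. Of all tested gene probes 8.35% at 24 hr and 4.52% at 48 hr had such a p, in either direction. The part of cell composition in the results below was not tested.

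Signal was first set against the negative controls, 19 probes with no homolog. A probe counted as above them on an array when the mean of its 2 spots exceeded the 95th percentile of negative-control spots in that dye on that array, and as detected at a time when this held in at least 80% of the array channels. By this criterion the 0 hr arrays detected 5 of 54 machinery probes (9.26%, against 4.77% of all 1509 gene probes). The 24 hr arrays detected 2 (3.70%, against 1.72%) and the 48 hr arrays 3 (5.56%, against 3.84%). Most of the machinery was therefore not detected by this criterion. Of the 54 probes 10, 18 and 5 at 0, 24 and 48 hr (18.5%, 33.3% and 9.26%, against 17.2%, 23.9% and 18.0% of all gene probes) were above the negative controls on no array in either RNA. The criterion counts arrays, and replicate 1 gave 8 of the 16 arrays at 24 hr and 8 of the 18 at 48 hr. A probe not above the limit in that replicate could not reach 80% at those times. TBP, above the limit on 10 of 18 arrays in each RNA at 48 hr, was not counted as detected. The limit itself ranged from 767 to 19190 between arrays and dyes.

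TCEB1, which encodes elongin C, a small subunit of the elongin complex and of ubiquitin ligases, was the only member detected at all 3 times. Its neomycin signal was a median of 6.26, 3.42 and 6.84 times the negative-control limit at 0, 24 and 48 hr, and its control signal 6.35, 4.13 and 7.68 times. PAF65A, a TAF6-like histone-fold protein of the SAGA and PCAF complexes, was detected at 0 hr and 24 hr. Its neomycin signal had a median of 5.90, 1.87 and 2.66 times the limit, and its control signal 7.32, 6.83 and 2.91 times.

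The remaining detected members passed the criterion at a single time. TAF2C1 (TAF4) and TAF2H (TAF10), both TFIID subunits, and SUPT4H1, the SPT4 elongation factor, were detected at 0 hr. SUPT4H1 was above the negative controls on 17 neomycin and 17 control channels of the 17 arrays at 0 hr, but on 3 and 3 of 16 arrays at 24 hr and 6 and 6 of 18 at 48 hr. GTF2A2, the small subunit of TFIIA, and GTF2H2, the p44 subunit of TFIIH, were detected at 48 hr, GTF2H2 on 17 neomycin and 18 control channels of 18 arrays. Detection moved with single replicates: without replicate 1, 17 members would have been detected at 48 hr in place of 3. The share of all gene probes detected without it was not computed, so this rise is no result about the machinery.

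**Figure D1:**
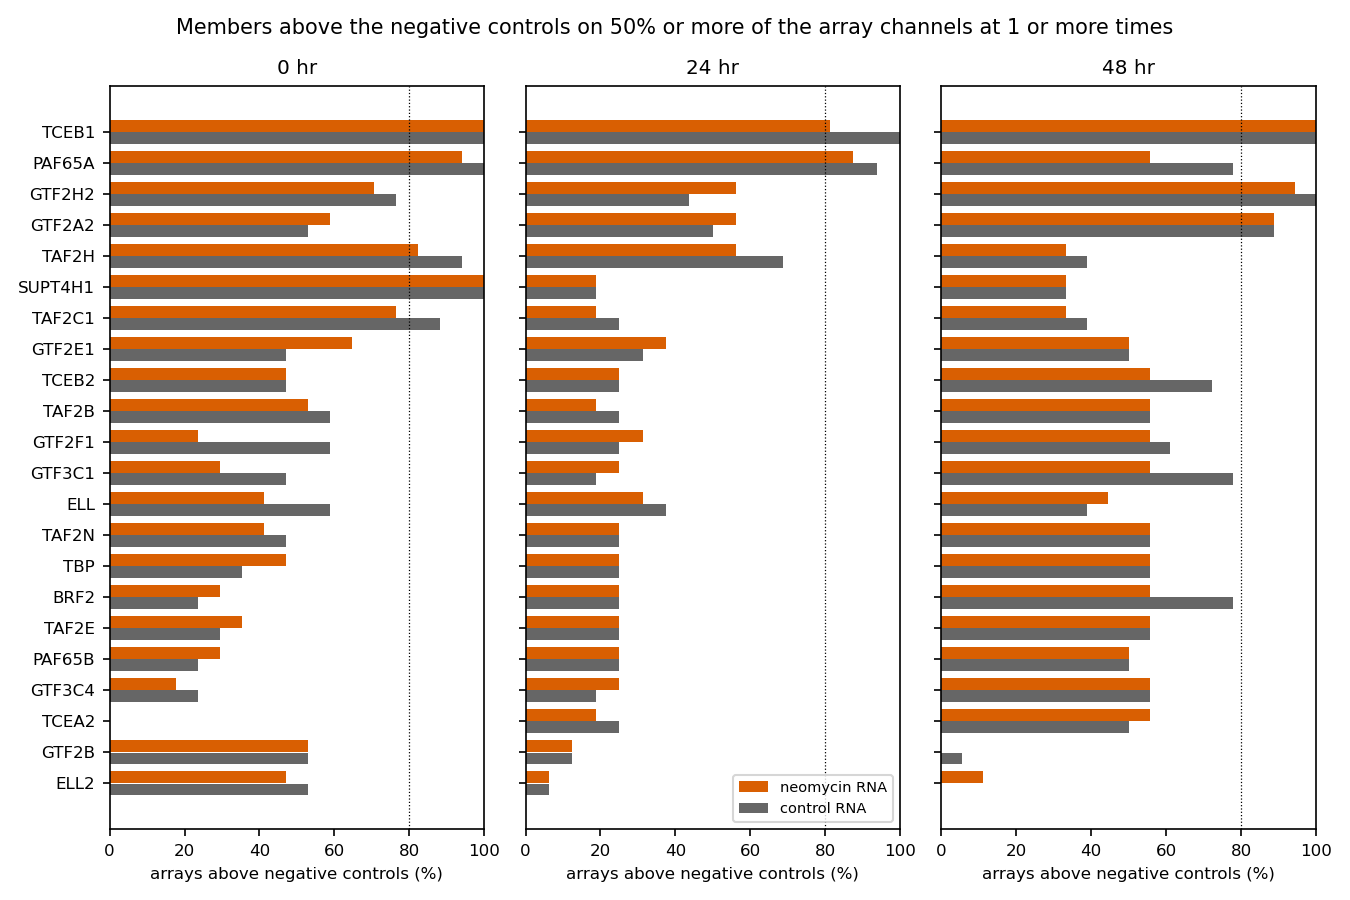
Percent of arrays on which each RNA (neomycin above control in each pair of bars) exceeded the negative controls at 0, 24 and 48 hr, for the members above them in 50% or more of the array channels at 1 or more times. The dotted line marks 80%, and TCEB1 is the only member past it at all 3 times.

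The ratios were read to ask which machinery genes differed with neomycin at each stage of recovery. After adjustment over all 1282 tested probes by limma, 0 of the 47 tested members passed 0.05 at any of the 3 times, against 0% of all probes. The unadjusted p was under 0.05 for 2 members at 0 hr (4.26% of 47, against 2.96% of all probes), 4 at 24 hr (8.51%, against 8.35%) and 6 at 48 hr (12.8%, against 4.52%). These counts moved with single replicates: 4 without replicate 1 and 1 without replicate 2 at 0 hr (5.77% and 2.26% of all probes), 2 without replicate 2 at 24 hr (3.82%), and 1 without replicate 1 at 48 hr (0.546%). Without the 0 hr array that ran against its companions, 2 members, ELL and GTF2F1, had such a p at 0 hr (4.26%, against 4.68% of all probes). The p-values measure the spread between biological replicates, each a pool of epithelia. Limma drew that spread from all 3 times and moved it towards a common value across probes. A member's standard error was therefore the same at each time. For PAF65A it was 0.491, with replicate SDs of 0.675, 1.635 and 0.648 at 0 hr, 24 hr and 48 hr. Where replicates disagreed most, as there at 24 hr, limma p-values and intervals overstate the precision of that time alone. In pooled tissue RNA, fewer cells of a type and less RNA per cell cannot be told apart.

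The 47 members were centred near 0 at each time. Their median ratios at 0, 24 and 48 hr were -0.04, -0.01 and -0.02, against -0.01, 0.00 and -0.02 in the other tested gene probes. At 0 hr 32 of 47 means lay below 0 (68.1%, against 51.3% of the others), and at 24 hr and 48 hr 25 (53.2%, against 49.1% and 53.3%). Signal was lower with neomycin in 3 of 3 replicates for 5, 8 and 9 members at 0, 24 and 48 hr, where 11.5%, 13.7% and 16.1% of all probes were, and higher in 3 of 3 for 4, 7 and 9 members, where 11.8%, 13.1% and 14.4% of all probes were. In percent these were 10.6%, 17.0% and 19.1% of members lower and 8.51%, 14.9% and 19.1% higher. A larger share of members than of other probes lay past 1.2-fold in either direction, a difference that was not tested, 21.3% against 14.5% at 0 hr, 27.7% against 22.8% at 24 hr and 36.2% against 21.8% at 48 hr. The wide members lay on both sides of 0. ELL, GTF2F1 and PAF65A lay below the central 95% of the other probes at 0 hr. PAF65A and TCEB1 lay below it and GTF2A1 and GTF2H4 above it at 24 hr, and GTF2F1, GTF2I, TAF2H and TCEB2 lay below it and ELL2 and TAF2D above it at 48 hr.

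**Figure D2:**
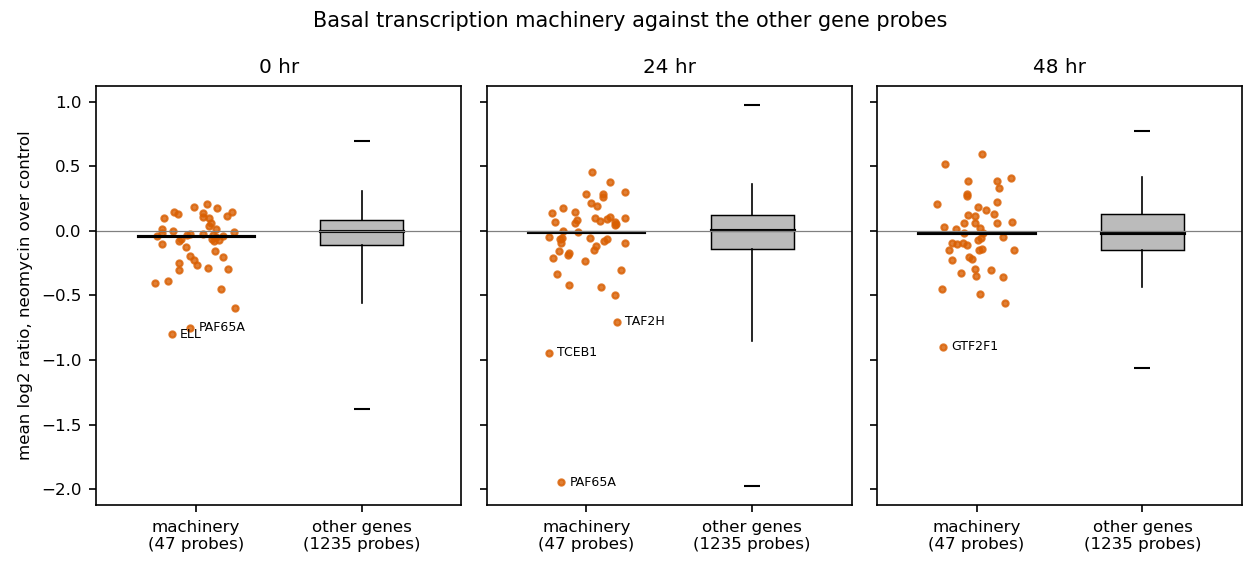
Mean log2 ratio of neomycin over control (3 replicates) for the 47 tested machinery probes (points, with their median as a bar) and the other tested gene probes (box from the 25th to the 75th percentile with the median, lines over the central 95%, dashes at the lowest and highest) at 0, 24 and 48 hr. The medians of both groups lie near 0, and PAF65A at 24 hr, at -1.95, is the lowest machinery point.

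**Figure D3:**
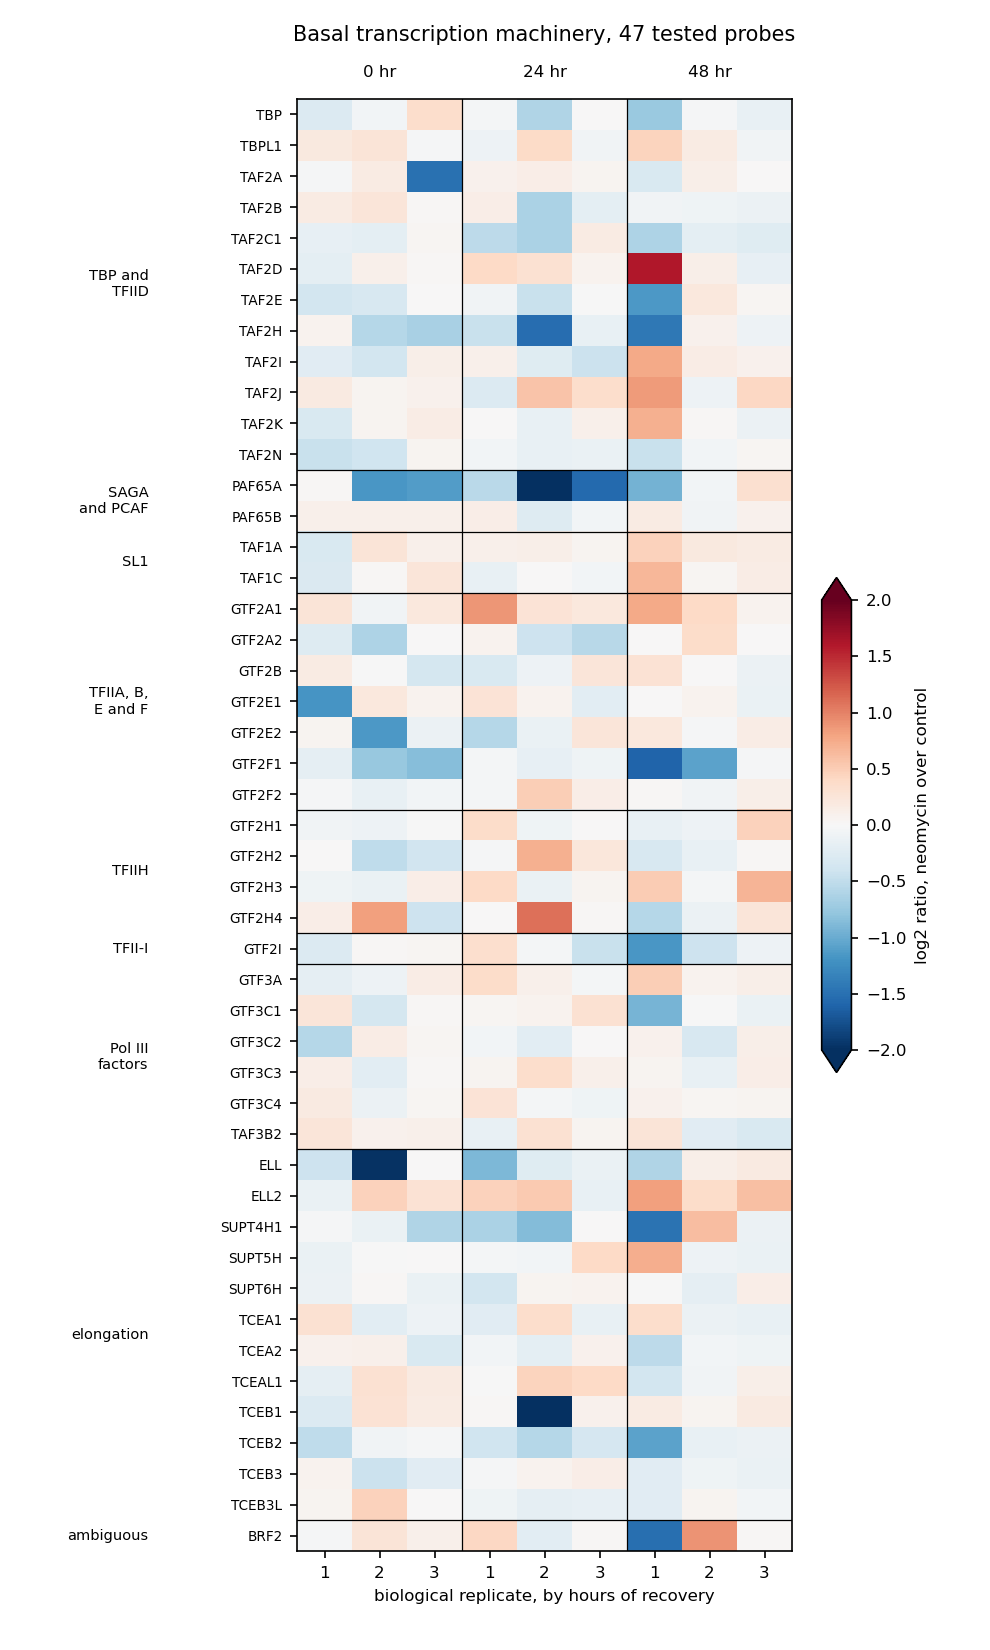
Log2 ratio of neomycin over control (colour scale, held at -2 and 2) of the 47 tested machinery probes in the 3 biological replicates of each recovery time, ordered by complex. The strongest colours at 24 hr are those of PAF65A and TCEB1 in replicate 2, at -3.74 and -2.93.

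PAF65A had the widest ratio of the machinery. It stood at 0.03, -1.16 and -1.12 in replicates 1, 2 and 3 at 0 hr, at -0.54, -3.74 and -1.56 at 24 hr, and at -0.94, -0.06 and 0.32 at 48 hr. All 3 replicates were thus below 0 at 24 hr, replicate 2 furthest, while the replicates straddled 0 at 0 hr and 48 hr. The mean of -1.95 ± 1.64 (SD, n = 3) at 24 hr had a 95% interval from -3.04 to -0.86, limma p-values of 0.002522 unadjusted and 0.5882 adjusted. The interval and p-values rest on the spread pooled over the 3 times, which was narrower than that at 24 hr.

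The single arrays of PAF65A ran the same way at 24 hr. Of 16 arrays 15 were lower with neomycin, and the 4 arrays of replicate 2, with both dye orders, lay between -4.13 and -3.51. On those 4 arrays the neomycin signal was a median of 1.43 times the negative-control limit and the control signal 10.4 times. Without replicate 2 the mean was -1.05 with limma p-values of 0.01354 unadjusted and 0.9979 adjusted, and over the 3 ways of leaving out a replicate the adjusted p lay between 0.2196 and 0.9979. Control spots reached the top of the scanner range on 3 arrays of replicate 3, which sets a floor to the size of its ratio. At 0 hr the mean was -0.75 ± 0.68 (SD, n = 3; adjusted p = 0.9997 in limma), and it was -1.002 without the array of replicate 3 that ran against its companions, on which PAF65A read 2.26. Control spots were at full scale on 2 arrays of replicate 2 and 1 of replicate 3 at 0 hr, so that these ratios too are floors in size.

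GTF2F1, the large subunit of TFIIF, which escorts RNA polymerase II to the promoter, was lower on most arrays at 0 hr and 48 hr. Its replicates stood at -0.18, -0.76 and -0.85 at 0 hr, at -0.03, -0.16 and -0.08 at 24 hr, and at -1.60, -1.06 and -0.03 at 48 hr. All 9 replicate values were below 0 as the arrays were oriented here, those of 24 hr close to it. The share of all probes below 0 in all 9 was not computed. The 2 dye orders differed in sign in replicate 1 at 0 hr, in replicates 1, 2 and 3 at 24 hr, and in replicate 3 at 48 hr. In replicate 3 at 48 hr they gave 0.311 with neomycin in Cy3 and -0.363 in Cy5. Replicate 3 at 0 hr rested on the array whose headers name Cy5 for both RNAs, which read -2.95 against -0.68 to 0.21 on its 3 companions. Without that array the replicate was at -0.37 and the 0 hr mean -0.44 (unadjusted p = 0.1017 in limma), and with its sign turned 0.13 and -0.27 (0.3227). The mean at 48 hr was -0.90 ± 0.80 (SD, n = 3), with a 95% interval from -1.45 to -0.34, limma p-values of 0.004635 unadjusted and 0.7837 adjusted, and 16 of 18 arrays were lower. At 0 hr the mean was -0.60 ± 0.36 (SD, n = 3) with limma p-values of 0.03726 unadjusted and 0.9997 adjusted, and 13 of 17 arrays were lower.

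The value of GTF2F1 at 48 hr rested partly on a dim replicate. In replicate 1, on 8 of 8 arrays lower, GTF2F1 was above the negative controls on 0 neomycin channels and 1 control channel, whereas in replicate 2, on 6 of 6 arrays lower, it was above them in both RNAs on all 6. Without replicate 1 the mean was -0.55 with an unadjusted p of 0.05544 in limma. At 0 hr the unadjusted p was 0.1402 without replicate 2 and 0.1733 without replicate 3, and the mean was -0.70 without the array that ran against its companions. GTF2F2, the small TFIIF subunit, had means of -0.08, 0.19 and 0.02 at 0, 24 and 48 hr.

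ELL2, an RNA polymerase II elongation factor found in super elongation complexes, was higher with neomycin in 3 of 3 replicates at 48 hr. Its replicates stood at -0.13, 0.46 and 0.28 at 0 hr, at 0.46, 0.53 and -0.14 at 24 hr, and at 0.82, 0.37 and 0.60 at 48 hr. Of 18 arrays at 48 hr 17 were higher, and the replicate values straddled 0 at 0 hr and 24 hr. The mean of 0.60 ± 0.23 (SD, n = 3) at 48 hr had limma p-values of 0.006077 unadjusted and 0.7837 adjusted, and the unadjusted p stayed between 0.008912 and 0.04334 without any 1 replicate. The size differed with dye order. In replicates 1, 2 and 3 at 48 hr the ratio was 0.899, 0.708 and 1.046 with neomycin in Cy3. With neomycin in Cy5 it was 0.744, 0.028 and 0.155. Neomycin RNA was above the negative controls on 2 of the 18 arrays and control RNA on 0, so that neither level was measured well and no fold is given.

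**Figure D4:**
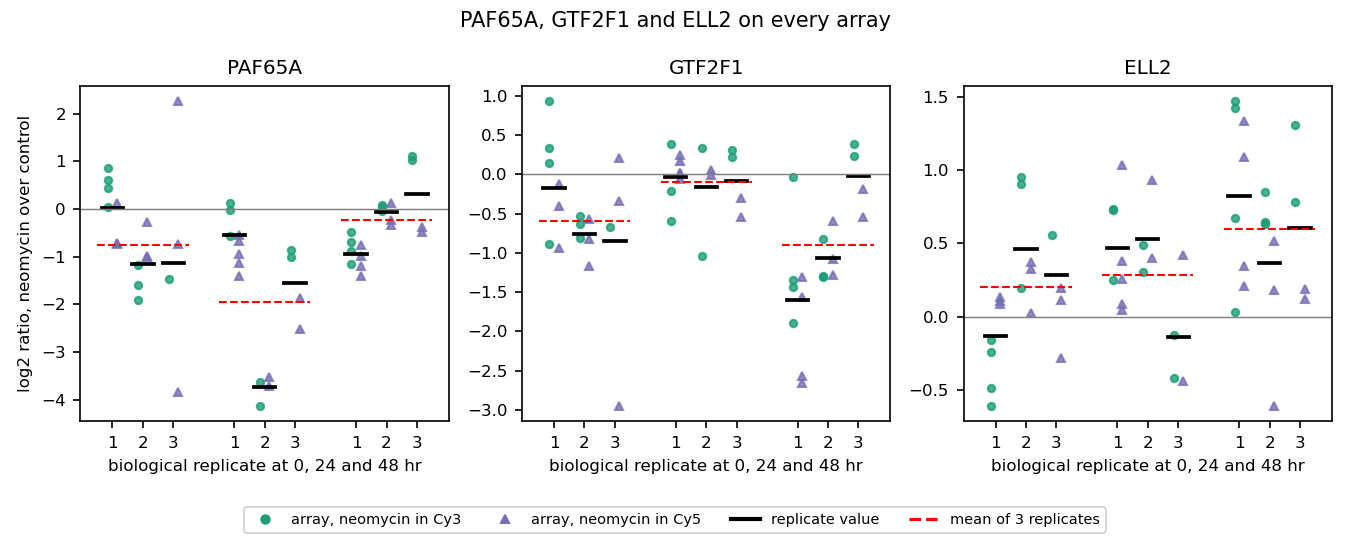
Log2 ratio of neomycin over control on every array for PAF65A, GTF2F1 and ELL2, by biological replicate at 0, 24 and 48 hr, with circles for neomycin in Cy3, triangles for neomycin in Cy5, black bars for replicate values and dashed red lines for the mean of 3 replicates. The 4 arrays of replicate 2 at 24 hr hold PAF65A between -4.13 and -3.51, and 17 of 18 arrays at 48 hr hold ELL2 above 0.

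Of the 15 probes for TBP and TFIID, 12 were tested, and TAF2C2 (TAF4B), TAF2F (TAF7) and TAF2G (TAF9) were among the 7 members left out as dim. The medians over the 12 at 0, 24 and 48 hr were -0.07, -0.14 and -0.08. An unadjusted p under 0.05 was found for 0, 1 and 0 probes (0%, 8.33% and 0%, against 2.96%, 8.35% and 4.52% of all probes). TBP itself, the subunit that bends the TATA box, stood at -0.27, -0.06 and 0.35 at 0 hr, at -0.04, -0.60 and 0.01 at 24 hr, and at -0.74, -0.02 and -0.14 at 48 hr, so that its replicates straddled 0 at the first 2 times. Its relative TBPL1 had the highest mean of the complex at 0 hr, 0.14, and TAF2A (TAF1), the largest TFIID subunit, the lowest, -0.45, through a value of -1.49 in replicate 3 alone. That value averaged 1 array with neomycin in Cy3, at -2.664, with 3 arrays in Cy5, at a mean of -0.321. TAF2A was above the negative controls on 0 neomycin and 1 control channel of 17 arrays at 0 hr.

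TAF2H (TAF10), a histone-fold subunit shared by TFIID and SAGA, had the lowest mean of the complex at 24 hr and 48 hr. Its replicates stood at 0.08, -0.58 and -0.66 at 0 hr, at -0.45, -1.52 and -0.15 at 24 hr, and at -1.43, 0.08 and -0.11 at 48 hr. At 24 hr all 3 were below 0 and 13 of 16 arrays were lower, with a mean of -0.71 ± 0.72 (SD, n = 3; unadjusted p = 0.04902 and adjusted p = 0.5882 in limma). Without replicate 2 that mean was -0.30 with an unadjusted p of 0.372 in limma, and without replicate 1 the p was 0.06575. In replicate 2 TAF2H was above the negative controls on 0 neomycin and 2 control channels of 4 arrays. In replicate 3 at 24 hr the dye orders differed in sign, with -0.343 for neomycin in Cy3 and 0.045 in Cy5. TAF2D (TAF5), a scaffold subunit of TFIID, was the highest of the complex at 24 hr, with a mean of 0.26, and at 48 hr, with 1.597, 0.12 and -0.17 in replicates 1, 2 and 3. It was above the negative controls on 1 neomycin and 0 control channels of 18 arrays at 48 hr.

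The remaining TFIID probes gave smaller means. TAF2C1 (TAF4), a coactivator contact of TFIID, stood below 0 in 3 of 3 replicates at 48 hr, at -0.62, -0.19 and -0.24 (unadjusted p = 0.06362 in limma). TAF2N (TAF15), an RNA-binding protein of the FET family, had a mean of -0.26 at 0 hr (unadjusted p = 0.1004 in limma). The means of TAF2B, TAF2E, TAF2I, TAF2J and TAF2K lay between -0.30 and 0.38 at the 3 times.

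Beside PAF65A, the SAGA and PCAF group held PAF65B (TAF5L) and SUPT3H, which was the dimmest member and left out. PAF65B, the partner of PAF65A in the same complexes, had replicates of 0.11, 0.10 and 0.10 at 0 hr, 0.13, -0.26 and -0.05 at 24 hr, and 0.16, -0.07 and 0.08 at 48 hr. Its means of 0.10, -0.06 and 0.06 had SDs of 0.004, 0.20 and 0.12 (n = 3 each).

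SL1, the TBP-containing promoter factor of RNA polymerase I, was measured through TAF1A and TAF1C, and TAF1B was dim. Both tested probes were higher in 3 of 3 replicates at 48 hr, as were 14.4% of all probes. TAF1A stood at 0.46, 0.19 and 0.16 and TAF1C at 0.66, 0.04 and 0.15. In replicate 2 the dye orders differed in sign. TAF1A gave -0.16 there with neomycin in Cy3 and 0.541 in Cy5, and TAF1C -0.251 and 0.334. The means were 0.27 and 0.28, with unadjusted p-values of 0.07764 and 0.0951 in limma, and TAF1C was above the negative controls on 3 neomycin and 2 control channels of 18 arrays. At 0 hr and 24 hr their means lay between -0.06 and 0.09.

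In the TFIIA, TFIIB, TFIIE and TFIIF group, GTF2A1, which encodes the large precursor subunit of TFIIA, was the highest member at all 3 times. Its replicates stood at 0.25, -0.07 and 0.22 at 0 hr, at 0.88, 0.28 and 0.21 at 24 hr, and at 0.76, 0.41 and 0.07 at 48 hr. All 6 values at 24 hr and 48 hr were above 0, replicate 1 highest. The dye orders differed in sign in 2 of them. Replicate 2 at 24 hr gave 1.036 with neomycin in Cy3 and -0.475 in Cy5, and replicate 3 at 48 hr -0.138 and 0.273. The means were 0.46 ± 0.37 at 24 hr (unadjusted p = 0.0249, adjusted p = 0.5882 in limma) and 0.41 ± 0.35 at 48 hr (unadjusted p = 0.03957, adjusted p = 0.7837 in limma; SD, n = 3 each). Without replicate 1 of the same time they were 0.25 and 0.24, with unadjusted p-values of 0.2139 and 0.2478 in limma, and the 48 hr p was 0.1003 without replicate 2. At 24 hr the probe was above the negative controls on 6 neomycin and 2 control channels of 16 arrays, and at 48 hr on 10 and 5 of 18.

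The other TFIIA subunit did not share this pattern. GTF2A2 stood at -0.26, -0.62 and 0.01 at 0 hr, at 0.07, -0.42 and -0.55 at 24 hr, and at 0.00, 0.37 and 0.01 at 48 hr, and it was the lowest of the group at 24 hr with a mean of -0.30. GTF2B (TFIIB), the bridge between TBP and the polymerase, had means of -0.07, -0.06 and 0.06. GTF2E1 and GTF2E2, the 2 TFIIE subunits, each had 1 wide value at 0 hr, -1.18 in replicate 1 for GTF2E1 and -1.14 in replicate 2 for GTF2E2, and their other values at 0 hr lay between -0.12 and 0.21. GTF2E2 had a mean of -0.41 at 0 hr (unadjusted p = 0.09888 in limma).

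TFIIH, the helicase and kinase complex that also serves DNA repair, had 4 probes under the name rule, all tested. Their medians at 0, 24 and 48 hr were -0.04, 0.20 and -0.04. The helicases ERCC2 and ERCC3 and the kinase module genes CDK7 and MNAT1 fell outside the rule by name. They were read with the related machinery. All 4 means under the rule lay above 0 at 24 hr, where 49.2% of all tested gene probes lay below it, a difference that was not tested. Outside the rule, ERCC3, CDK7 and MNAT1 had 24 hr means of 0.11, 0.25 and -0.01, and ERCC2 was left out as dim. GTF2H2 stood at 0.01, -0.51 and -0.38 at 0 hr, at -0.03, 0.71 and 0.23 at 24 hr, and at -0.32, -0.14 and 0.03 at 48 hr. GTF2H4, the p52 subunit that anchors the XPB helicase, stood at 0.14, 0.82 and -0.41 at 0 hr, at 0.01, 1.10 and 0.02 at 24 hr, and at -0.56, -0.12 and 0.24 at 48 hr. Its 24 hr mean of 0.38 thus came from replicate 2, where 4 of 4 arrays were higher and neomycin RNA was above the negative controls on 4 arrays and control RNA on 1. GTF2H3, the p34 subunit, stood at 0.52, -0.04 and 0.68 at 48 hr, with a mean of 0.38 ± 0.38 (SD, n = 3; unadjusted p = 0.04084, adjusted p = 0.7837 in limma). It was above the negative controls on 1 neomycin and 1 control channel of 18 arrays there, and without replicate 1 or replicate 3 its unadjusted p was 0.1441 or 0.2627 in limma. GTF2H1 (p62), the remaining probe, had means of -0.06, 0.10 and 0.07.

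GTF2I (TFII-I), a multifunctional factor that binds initiator and upstream elements, stood at -0.28, 0.03 and 0.04 at 0 hr, at 0.33, -0.04 and -0.45 at 24 hr, and at -1.16, -0.42 and -0.11 at 48 hr. At 48 hr all 3 values were below 0, with a mean of -0.56 ± 0.54 (SD, n = 3; unadjusted p = 0.02133, adjusted p = 0.7837 in limma). Without replicate 1 the mean was -0.26 with an unadjusted p of 0.2132 in limma. In replicate 3 at 48 hr the dye orders differed in sign, with 0.254 for neomycin in Cy3 and -0.47 in Cy5. GTF2I was above the negative controls on 7 neomycin and 8 control channels of 18 arrays at 48 hr.

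The RNA polymerase III factors had 7 probes, of which 6 were tested. The median over the 6 was -0.02, 0.10 and -0.01 at 0, 24 and 48 hr. At each time 0 of them had an unadjusted p under 0.05, as did 2.96%, 8.35% and 4.52% of all probes. With so few probes that is no result about these factors. The means ranged from -0.13 for GTF3C2 at 0 hr to 0.22 for GTF3A (TFIIIA), the zinc finger factor of 5S RNA genes, at 48 hr, apart from GTF3C1 at 48 hr. GTF3C1, the largest TFIIIC subunit, stood at -0.92, -0.01 and -0.13 there, a mean of -0.35 carried by replicate 1. GTF3C5 was dim. TAF3B2 (BRF1), the TFIIB-like subunit of TFIIIB, served as a check on specificity, because 4 mismatch versions of its probe were on the array. It was above the negative controls on 0 of 17 arrays at 0 hr, 0 of 16 at 24 hr, and 1 neomycin and 2 control channels of 18 arrays at 48 hr. The 4 mismatch probes were above them on 0 to 2 arrays of any time in either RNA, so that the matched probe could not be told apart from its mismatches at this signal.

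Among 13 elongation probes 12 were tested. The median over the 12 was -0.04, -0.07 and -0.09 at 0, 24 and 48 hr. At each time 8 of 12 means lay below 0 (66.7%, against 51.9%, 49.2% and 53.3% of all tested gene probes), a difference that was not tested. ELL, the founding member of its family, stood at -0.42, -1.98 and 0.01 at 0 hr, at -0.90, -0.24 and -0.13 at 24 hr, and at -0.60, 0.12 and 0.18 at 48 hr. Its mean of -0.80 ± 1.05 (SD, n = 3) at 0 hr was the lowest of the machinery there, with limma p-values of 0.03379 unadjusted and 0.9997 adjusted. These p-values use the spread pooled over the 3 times, and the SDs at 24 hr and 48 hr were smaller, 0.42 and 0.44. Without replicate 2 that mean was -0.21 with an unadjusted p of 0.4403 in limma. ELL2 had the highest mean of the machinery at 0 hr, 0.20, and at 48 hr, and the 2 paralogs were not compared with a test.

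The elongin complex was covered by 4 probes. TCEB1 (elongin C) stood at -0.28, 0.29 and 0.17 at 0 hr, at 0.02, -2.93 and 0.09 at 24 hr, and at 0.17, 0.06 and 0.17 at 48 hr. Its 24 hr mean of -0.94 ± 1.72 (SD, n = 3; unadjusted p = 0.06603, adjusted p = 0.6183 in limma) thus came from replicate 2, where 4 of 4 arrays lay between -3.60 and -2.05, neomycin RNA was above the negative controls on 1 array and control RNA on 4. In replicate 3 at 24 hr its spots reached the top of the scanner range on 2 neomycin and 4 control channels of 4 arrays, which limits that ratio. TCEB2 (elongin B), the ubiquitin-like partner of elongin C, was below 0 in 9 of 9 replicates, some of them close to it. The share of all probes below 0 in 9 of 9 was not computed.

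The TCEB2 values were -0.50, -0.07 and -0.03 at 0 hr, -0.40, -0.56 and -0.33 at 24 hr, and -1.07, -0.15 and -0.12 at 48 hr. The 2 dye orders differed in sign in replicates 2 and 3 at 0 hr, replicate 2 at 24 hr, and replicates 2 and 3 at 48 hr. In replicate 2 at 48 hr they gave -0.657 with neomycin in Cy3 and 0.353 in Cy5. Its means were -0.43 ± 0.12 at 24 hr (unadjusted p = 0.04585, adjusted p = 0.5882 in limma) and -0.45 ± 0.54 at 48 hr (unadjusted p = 0.03969, adjusted p = 0.7837 in limma; SD, n = 3 each), with 14 of 16 and 15 of 18 arrays lower. In replicates 1 and 2 at 24 hr the probe was above the negative controls on 0 arrays in either RNA. Without any 1 replicate the 24 hr unadjusted p lay between 0.07927 and 0.1517, and without replicate 1 the 48 hr mean was -0.14 with an unadjusted p of 0.3993 in limma. TCEB3 (elongin A), the transcriptionally active subunit, had means of -0.19, 0.06 and -0.15, and TCEB3L, its relative elongin A2, of 0.17, -0.14 and -0.07.

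SUPT4H1, detected only at 0 hr and close to the limit there, stood at -0.02, -0.13 and -0.60 at 0 hr, at -0.63, -0.86 and 0.01 at 24 hr, and at -1.47, 0.62 and -0.12 at 48 hr. Its replicates straddled 0 at 24 hr and 48 hr, and the mean was -0.49 ± 0.45 at 24 hr (SD, n = 3; unadjusted p = 0.156 in limma). SUPT5H, its partner in the SPT4 and SPT5 complex, had means of -0.04, 0.10 and 0.16. SUPT6H, a histone chaperone that travels with the polymerase, never exceeded the negative controls and had means between -0.08 and -0.02. TCEA1 and TCEA2, the TFIIS proteins that rescue stalled polymerase, had means between -0.22 and 0.03, and TCEAL1, a TFIIS-like protein, was the second highest elongation probe at 24 hr with 0.28.

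BRF2 was kept apart because the name can mean either a TFIIIB subunit of RNA polymerase III or an RNA-binding protein of the ZFP36 family. It stood at -0.02, 0.25 and 0.11 at 0 hr, at 0.41, -0.20 and 0.02 at 24 hr, and at -1.51, 0.89 and 0.02 at 48 hr. The 48 hr replicates thus lay on both sides of 0, over the widest range of any member at that time, around a mean of -0.20 ± 1.21 (SD, n = 3).

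**Figure D5:**
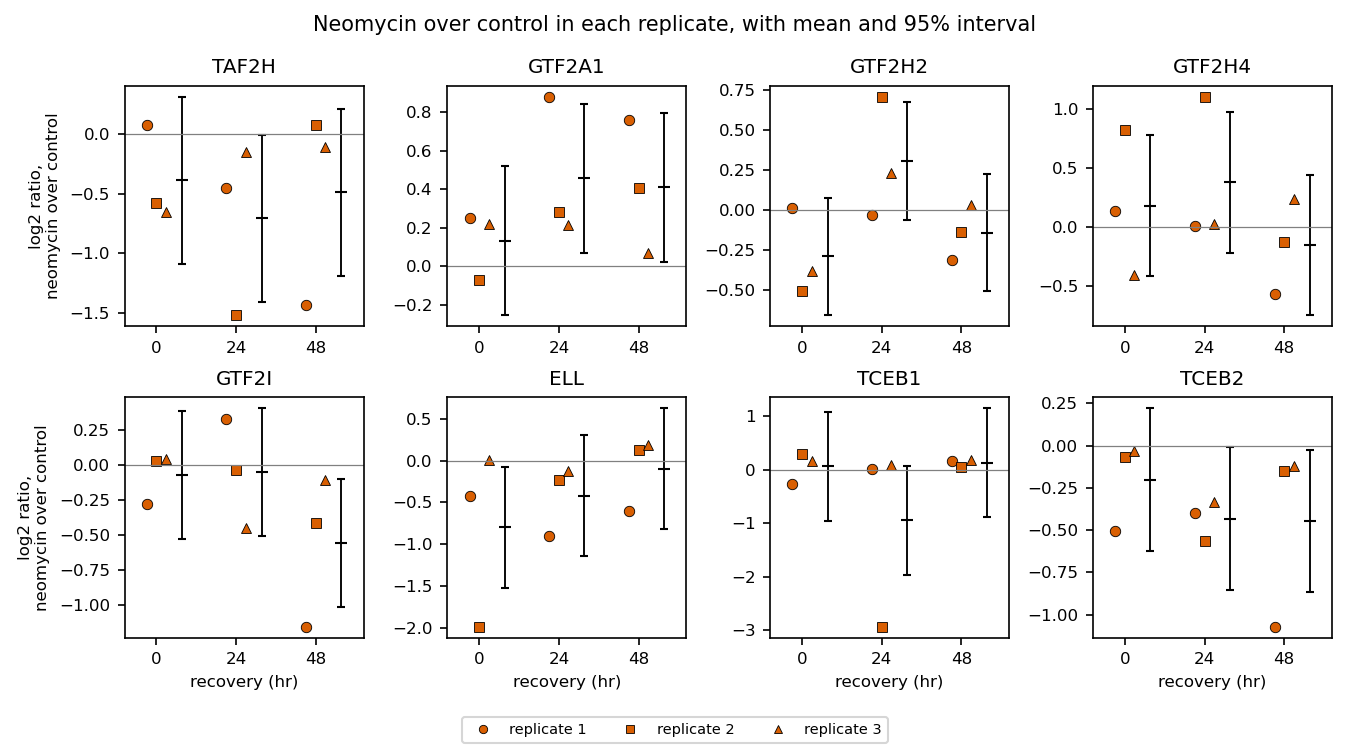
Log2 ratio of neomycin over control in replicates 1, 2 and 3 (circles, squares and triangles) at 0, 24 and 48 hr of recovery for 8 machinery members, with the mean and its 95% interval from limma to the right (y scales differ between panels). The intervals use the spread pooled over the 3 times. TCEB2 lies below 0 in 9 of 9 replicates, some of them close to it, whereas TCEB1 at 24 hr and ELL at 0 hr are set by replicate 2 and TAF2H at 48 hr by replicate 1.

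A further question was whether a member's ratio differed between recovery times. None of the 47 members passed an adjusted p of 0.05 in limma for any pair of times, against 0% of all probes. The unadjusted p was under 0.05 for 1 member in 24 hr minus 0 hr (1.33% of all probes), 2 in 48 hr minus 24 hr (3.98%) and 0 in 48 hr minus 0 hr (1.48%). GTF2H2 was higher by 0.60 at 24 hr than at 0 hr (standard error 0.23, unadjusted p = 0.02916, adjusted p = 0.9981 in limma), a difference of 0.39 without replicate 2 of 24 hr (unadjusted p = 0.1273), 0.49 without replicate 2 of 0 hr (0.1023) and 0.55 without replicate 3 of 0 hr (0.0779). PAF65A was higher by 1.72 at 48 hr than at 24 hr (standard error 0.69, unadjusted p = 0.03223, adjusted p = 0.8478 in limma). Without replicate 2 of 24 hr that difference was 0.82 (unadjusted p = 0.1023), and without replicate 2 or 3 of 48 hr it was 1.63 or 1.45 (0.07357 or 0.1009). GTF2F1 had a difference of -0.81 for 48 hr minus 24 hr (standard error 0.35, unadjusted p = 0.04465, adjusted p = 0.8478 in limma). It was -0.45 without replicate 1 of 48 hr (unadjusted p = 0.1887), and without any 1 of the other replicates except replicate 3 of 48 hr the unadjusted p lay between 0.05724 and 0.1116.

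The next smallest p-values belonged to TAF2I (TAF11), a histone-fold TFIID subunit that contacts TFIIA, with 0.52 for 48 hr minus 24 hr and 0.49 for 48 hr minus 0 hr (unadjusted p = 0.05815 and 0.07208 in limma). Its replicates stood at -0.22, -0.36 and 0.12 at 0 hr, at 0.10, -0.23 and -0.43 at 24 hr, and at 0.76, 0.15 and 0.08 at 48 hr. TAF2B (TAF2), which contacts the initiator, had -0.38 and PAF65A -1.197 for 24 hr minus 0 hr, and GTF2H3 and GTF2A2 each had 0.41 for 48 hr minus 0 hr, with unadjusted p-values between 0.1049 and 0.1147 in limma.

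Related machinery outside the name rule was read in the same way. The list held Mediator subunits, the TFIIH kinase module, P-TEFb, negative elongation factors, SNAPc and SAGA partners, and 34 of its 57 names were on the array, of which 29 were tested. Its names for negative elongation factors were not among the 34. The study lists the PC4 probe, which is among them, as IFRD1, an interferon-related regulator. None was detected above the negative controls at any time. At 0, 24 and 48 hr 0 of 29 had an unadjusted p under 0.05 in limma, against 2.96%, 8.35% and 4.52% of all tested gene probes. Their median ratios were -0.02, -0.04 and -0.05. The extremes were -0.80 for the Mediator subunit CRSP9 at 24 hr and 0.39 for MNAT1, the assembly factor of the TFIIH kinase, at 48 hr. TAF-172 (BTAF1) had means of -0.31, -0.53 and -0.20 at 0, 24 and 48 hr. Its 24 hr replicates stood at -1.38, -0.20 and -0.01 (unadjusted p = 0.1181 in limma).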

How the data were processed

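Each deposited scanner file gave the intensity of 3072 spots in 1 dye on 1 array, the pixel mean and median of a spot and of its local background, which the authors measured with the ImaGene program per the file headers. The array held 1536 probes, each spotted 2 times, and 0 spots carried a quality mark. The log2 values of the deposited series table equalled the raw log2 ratio of the signal means to within 6.217e-15, with column medians from -1.486 to 2.552, and were used only as an alternative. The direction of every ratio was taken from the dye orders in the labels. Both headers of 1 array of 0 hr replicate 3 gave Cy5 as the dye. The headers of 6 arrays of 24 hr replicate 1 wrote Coch where others wrote control, and this was taken as the control RNA.

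Signal means were corrected for background by normexp with an offset of 50 and normalised within each array by loess, with control spots at weight 0. The 2 spots of a probe were averaged, every ratio was turned to neomycin over control, and arrays were averaged within each dye order and then over both, so that each of 9 biological replicates had 1 value. In replicate 3 at 0 hr 1 array with neomycin in Cy3 thus weighed as much as the 3 in Cy5 together. The dimmest 15% of gene probes (227) were left out, 7 of them members, which left 1282. These were fitted in limma (version 3.58.1, R 4.3.3; lmFit and eBayes) with a mean per time, and p-values were adjusted by Benjamini-Hochberg over the 1282 probes. The residual spread of each probe was pooled over the times. Differences between times are contrasts of the same fit. Plots were drawn with matplotlib 3.10.9 under Python 3.11.15. The fit was tested on simulated data with known ratios. The simulation gave every replicate the same spread, unlike these data, so it says nothing about precision where replicates differ in spread.

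Members, complexes, the related machinery and the cell type markers were chosen with earlier results of these data known. The text names PAF65A, GTF2F1 and ELL2; at each time the members with an unadjusted p under 0.05, filled up to 5 by smallest p; the 3 smallest p-values of each contrast; the highest and lowest mean of each complex; detected and dim members, 1 of which is not reported here; and a few partners of these, added after their values were seen. Of the 54 array names, 48 matched a chicken gene symbol directly or by a later name, 21 later names differing from the array's, and 6 did neither. These 6 were PAF65A and GTF2F1, which are reported singly above, and TAF2E, GTF3C4, TCEAL1 and TCEB3L. The probes were designed on human sequence, and how well each pairs with the chicken transcript was not tested.

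The precision is limited by 3 replicates at each time. Scanner files named 14 quantification days, of which 1 held arrays of more than 1 replicate (0 hr replicate 2 and 48 hr replicate 2). Replicate numbers were checked for pairing across times. The deviations of equally numbered replicates from their time means correlated between -0.161 and 0.065. No pairing was seen. With 3 replicates at each time, and ratios in which effects shared by both RNAs cancel, the check could not exclude it. In all 31 alternatives were run, among them other background corrections, normalisations and filters, single-array fits, 1 dye order alone, and each replicate left out. Leaving out or turning the 0 hr array that ran against its companions, or the one with Cy5 named for both RNAs, was chosen after seeing the data.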

Additional observations from a re-analysis of the deposited data

Results flagged for a closer look

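For 3 members the ratio differed between recovery times by limma's contrast at an unadjusted p under 0.05, and in none of them did the adjusted p pass. GTF2H2, of TFIIH, had a difference of 0.596 for 24 hr minus 0 hr (adjusted p = 0.9981 in limma). PAF65A had a difference of 1.718 for 48 hr minus 24 hr, and GTF2F1 one of -0.805 (adjusted p = 0.8478 in limma for both). Replicate 2 at 24 hr and replicate 1 at 48 hr also had wide ratios across the other probes. Without replicate 2 at 24 hr the PAF65A difference was 0.821 (unadjusted p = 0.1023 in limma), and without replicate 1 at 48 hr the GTF2F1 difference was -0.454 (unadjusted p = 0.1887 in limma).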

How the results depend on the processing

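The 0 hr median ratio of the machinery lay between -0.078 and -0.01 over all alternatives run, and it and PAF65A at 24 hr, GTF2F1 at 48 hr and ELL2 at 48 hr kept their signs in all of them. Below, counts are of members with an unadjusted p under 0.05 unless called adjusted. Where a count moved, the cause was not tested. The share of all probes was not computed for settings where none is given, so those counts are no result about the machinery. Without background correction, 3 members passed for 24 hr minus 0 hr and 4 for 48 hr minus 24 hr. With plain subtraction the counts were 0 at 0 hr, 2 for 24 hr minus 0 hr and 1 for 48 hr minus 24 hr, and the medians were -0.085 at 24 hr and -0.05 at 48 hr. The 48 hr median was -0.055 with median centring, 0.013 with scaling between arrays (which gave 4 members at 0 hr) and -0.096 without the dimmest 30% of probes. Signal medians gave 0 for 24 hr minus 0 hr. The deposited log2 table gave 4 at 0 hr, 11 at 24 hr, and 4, 7 and 2 for 24 hr minus 0 hr, 48 hr minus 24 hr and 48 hr minus 0 hr. The methods' t-test gave 1 at 0 hr and 2 at 48 hr. With only arrays of neomycin in Cy3 the counts were 0 at 0 hr, 7 at 24 hr, and 0 for both 24 hr minus 0 hr and 48 hr minus 24 hr, the 48 hr median was 0.086, and PAF65A at 48 hr turned to 0.098. With only arrays of neomycin in Cy5 they were 5 at 0 hr, 1 at 24 hr, 2 for 24 hr minus 0 hr and 1 for 48 hr minus 0 hr, and 1 adjusted at 24 hr (PAF65A at -2.242). Leaving out 5 arrays doubted in earlier work gave 0 at 0 hr, 2 at 24 hr and 1 for 48 hr minus 24 hr, and leaving out the 1 array that ran against its companions gave 1 for 48 hr minus 24 hr. The array with Cy5 named for both RNAs gave 1 at 0 hr when left out (1.95% of all probes), and 1 at 0 hr (1.09%) and 1 for 48 hr minus 24 hr when turned.

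Fits of single arrays, which take arrays of 1 pool as separate samples with an estimated correlation, gave adjusted calls. With the replicate as a random block (correlation 0.2017) these were 2 at 24 hr (PAF65A, TCEB1; 2.89% of all probes) and 1 at 48 hr (GTF2F1; 0.312%), with unadjusted counts of 10 at 48 hr and 3, 5 and 3 for 24 hr minus 0 hr, 48 hr minus 24 hr and 48 hr minus 0 hr. With array weights the adjusted counts were 2 at 0 hr (ELL, GTF2E2; 4.06% of all probes), 1 at 24 hr (PAF65A; 2.26%), 1 at 48 hr (GTF2F1; 0.156%), 1 for 48 hr minus 24 hr (PAF65A; 0.39%) and 1 for 48 hr minus 0 hr (ELL; 0.624%). The unadjusted counts were then 8 at 0 hr and 5, 5 and 3 for the contrasts in the same order, and the 48 hr median was 0.013. With the quantification day as the block the adjusted counts were 1, 3 and 4 at 0, 24 and 48 hr (0.624%, 5.46% and 3.2% of all probes) and 1 for 48 hr minus 24 hr (1.09%), and the unadjusted counts 8, 9 and 15, and 4, 7 and 10 for the contrasts. The replicate number was also used as a replicate block, a pairing that the check above did not show. This gave 1 member at 0 hr, 0 for 24 hr minus 0 hr and 1 for 48 hr minus 24 hr.

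Without any 1 replicate the adjusted count was 0 throughout. The unadjusted count was 1 to 4 at 0 hr (1.87% to 5.77% of all probes), 2 to 6 at 24 hr (3.82% to 10.8%) and 1 to 9 at 48 hr (0.546% to 8.5%). For the contrasts in the same order it was 0 to 3, 0 to 6 and 0 to 3. The medians were -0.078 to -0.038 at 0 hr, -0.05 to 0.015 at 24 hr and -0.077 to 0.008 at 48 hr. PAF65A at 48 hr ranged from -0.501 to 0.131, turning to 0.131 without replicate 1. Detected members numbered 5 to 7, 2 to 4 and 3 to 17 at 0, 24 and 48 hr without any 1 replicate, 12, 5 and 16 when 50% of channels sufficed, and 2 at 0 hr against the highest negative-control spot. The matching shares of all gene probes were not computed. Signal near the negative controls limits most members, and the offset of 50 draws their ratios towards 0.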
